A study of Mus musculus with 8 samples.

Results

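Lysosomal cathepsins and lysosomal membrane proteins were followed in sorted myeloid cells of autoimmune mice. Of the 54188 genes in the count table, 9 were taken by symbol: the proteases *Ctsa*, *Ctsb*, *Ctsd*, *Ctsh*, *Ctsl*, *Ctss* and *Ctsz*, and the membrane glycoproteins *Lamp1* and *Lamp2*. The rule names the genes and uses no measured value, though earlier results of these data were known when it was made. Each of the 9 genes was found in the table and passed the filter on low counts, which left 17650 genes to test.

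The cells came from mice homozygous for the sanroque allele of *Roquin* (Roquin san/san, C57BL/6 background), a lupus-prone strain that makes autoantibodies spontaneously. The labels give all animals as female and 20 weeks old. CD11b+ cells (written CD11+ in the labels) were sorted by Gr-1 staining from the spleen (SP) and bone marrow (BM), and mRNA was sequenced from 2 libraries for each of 4 groups: SP Gr-1hi (libraries 5 and 6), SP Gr-1lo (7 and 8), BM Gr-1hi (9 and 10) and BM Gr-1lo (11 and 12). The comparisons ask how the spleen-derived cells differ from their BM counterparts and how the Gr-1hi subset, labelled G-MDSC, differs from the Gr-1lo subset, labelled M-MDSC. Every group carried the sanroque allele, so none serves as a wild-type control, and the labels do not say which libraries share a mouse. The P-values therefore measure only the spread between these libraries.

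Lysosomes digest proteins, lipids and engulfed material at acidic pH. Cathepsins are the main proteases inside them: *Ctsd* encodes an aspartic endopeptidase, *Ctsb*, *Ctsl* and *Ctss* encode cysteine endopeptidases, *Ctsh* encodes a cysteine aminopeptidase, *Ctsz* encodes a cysteine carboxypeptidase, and *Ctsa* encodes a serine carboxypeptidase that also protects neuraminidase and beta-galactosidase. LAMP1 and LAMP2 line the lysosomal membrane, and in antigen-presenting cells cathepsin S cleaves the invariant chain (*Cd74*) from MHC class II. Many lysosomal genes carry near their start a CACGTG element, an E-box to which transcription factors such as TFEB and TFE3 can bind.

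The starts of the genes are shown for these elements, since the genes differed in how many they held. RefSeq promoters (GRCm38.p6, 250 bases before to 50 bases after the start) were listed for 7 of the 9 genes. CACGTG was searched on both strands and stood in the windows of *Ctsa*, *Ctsd*, *Ctsl* and *Lamp1*. It stood in 7.15% of all 32851 windows. Counted by gene and not by window, 24.4% of 86 other lysosomal genes held it in any listed window. *Lamp1* held 4 copies in a row. The E-box is in capitals, positions are counted in bases from the start, and each sequence runs 5′ to 3′ along the gene's own strand:
Lamp1, -61, chr8:13159090-13159115: ggcaagatatCACGTGgtccagcgcc
Lamp1, -45, chr8:13159106-13159131: gtccagcgccCACGTGatgccgactg
Lamp1, -28, chr8:13159123-13159148: tgccgactggCACGTGaccacatcac
Lamp1, -15, chr8:13159136-13159161: gtgaccacatCACGTGcggaacggag
Ctsl, -236, chr13:64370741-64370766 on the minus strand: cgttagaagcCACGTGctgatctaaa

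*Ctsd* and *Ctsa* held the longer form TCACGTGA, which contains the E-box and stood in 0.974% of all windows. Counted by gene, 12.8% of the other lysosomal genes held it in any listed window. The longer form is in capitals below. *Ctsd* held one more plain E-box at -245, and *Ctsa*, with 2 listed starts, held its pair at one of them:
Ctsd, -99, chr7:142387909-142387936 on the minus strand: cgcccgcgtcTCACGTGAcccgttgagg
Ctsa, -13, chr2:164833750-164833777: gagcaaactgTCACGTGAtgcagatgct
Ctsa, 4, chr2:164833767-164833794: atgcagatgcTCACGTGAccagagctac

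*Ctss* held no E-box. Its start instead held the core of an interferon-stimulated response element (ISRE), a pair of GAAA with any 2 bases between (3.44% of all windows), and, 19 bases further on, the core of a PU.1 motif, GAGGAAGT, on the opposite strand (3.2% of all windows), both in capitals below. The ISRE core was also found at -135 in *Lamp1*. The palindrome of the lysosomal CLEAR element, TCACGTGA with a G before and a C after it, was found in none of the 7 genes. It stood in 0.326% of all windows and, counted by gene, in 2.33% of the other lysosomal genes. *Ctsz* and *Lamp2* held none of the 5 motifs searched. A match shows only that the letters are there:
Ctss, -21, chr3:95526755-95526784: gtctttaaatGAAACCGAAAtgaaagttca
Ctss, -2, chr3:95526774-95526801: atgaaagttcACTTCCTCattgtggatg

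**Figure D1:**
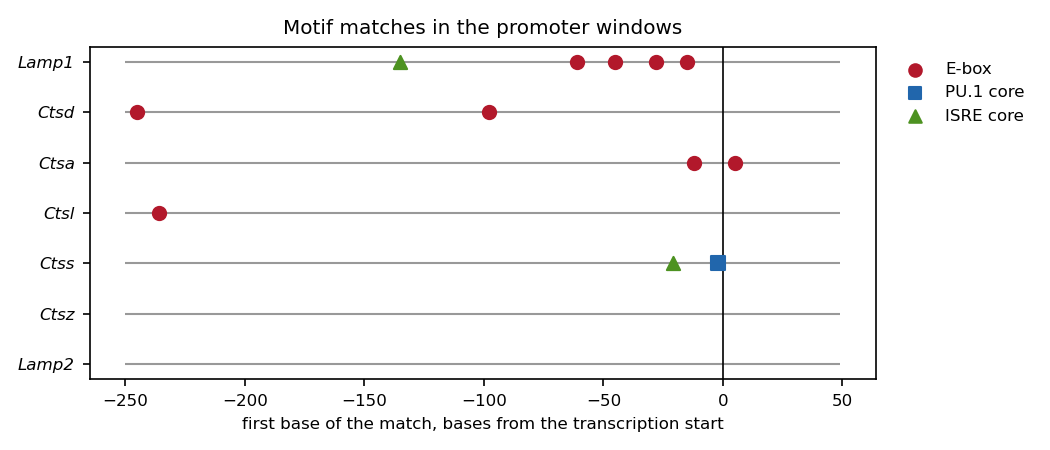
Positions of the E-box, PU.1 core and ISRE core in the RefSeq promoter windows of the 7 genes with a listed window. The horizontal axis is the distance in bases from the annotated start, each row is 1 gene, and each mark is the first base of 1 match; the longer forms of the E-box are not marked apart. For *Ctsa*, which has 2 listed starts, only the start with E-boxes is drawn. *Lamp1* carried 4 E-boxes between -61 and -15, and *Ctsz* and *Lamp2* carried no match.

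The libraries held 33453580 to 68316154 counts. The sorted subsets carried their labelled markers: the summed level of 10 neutrophil genes was 153600 to 168256 CPM (counts scaled to library size) in BM Gr-1hi and 78715 to 112170 CPM in SP Gr-1hi, against 4945 to 5018 CPM in BM Gr-1lo and 10690 to 11979 CPM in SP Gr-1lo. The summed level of 10 monocyte genes was 9716 to 10621 CPM in BM Gr-1lo and 7239 to 7308 CPM in SP Gr-1lo, against 1081 to 1771 CPM in the Gr-1hi groups. The 2 SP Gr-1hi libraries were least alike, since a chi-square test of their counts gave 66.7 for each degree of freedom and 18.9 to 21.3 elsewhere. Against the labelled sex, the Y-linked *Ddx3y* was read in 7 of 8 libraries. The female-specific transcript *Xist* reached 12032 counts in library 5 and 9898 counts in library 7 and at most 5 counts in the others, and library 7 also held 1595 counts of *Ddx3y*. Calls of the 9 genes and counts over lists were therefore repeated without libraries 5 and 7, and the calls of named genes that were lost are given beside them.

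*Ctsd* was the 1 gene of the 9 that was higher in the Gr-1hi subset in both tissues, whereas the other proteases and *Lamp1* were lower there and *Lamp2* was nearly level. With edgeR's quasi-likelihood test, a fold change (FC) of at least 2 and an adjusted P of at most 0.05, *Ctsd* was higher and *Ctsa*, *Ctsb*, *Ctss*, *Ctsz* and *Lamp1* were lower in BM Gr-1hi than in BM Gr-1lo, 6 of 9 genes against 57.3% of all genes tested (24.2% higher, 33.1% lower). In SP, *Ctsd* was higher and *Ctsb*, *Ctsh*, *Ctss*, *Ctsz* and *Lamp1* were lower in Gr-1hi, again 6 of 9 genes, against 49.6% of all genes (22.3% higher, 27.4% lower). These shares are near the background. At any fold, 8 of 9 genes passed in each tissue, 1 higher and 7 lower, against 75.7% of all genes in BM (34.5% higher, 41.2% lower) and 71.4% in SP (33.6% higher, 37.8% lower). The stricter rule of FC over 8 and adjusted P below 0.01 called none of the 9 in either tissue, against 16.7% of genes in BM (6.56% higher, 10.1% lower) and 7.37% in SP (4.44% higher, 2.93% lower). All 8 of these genes had an unadjusted P below 0.05, and DESeq2 also called none by that rule. Levels did not overlap between subsets for 8 of 9 genes in each tissue, 1 higher and 7 lower, against 88.9% of genes in BM (40.6% higher, 48.2% lower) and 86.2% in SP (40.6% higher, 45.6% lower).

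**Figure D2:**
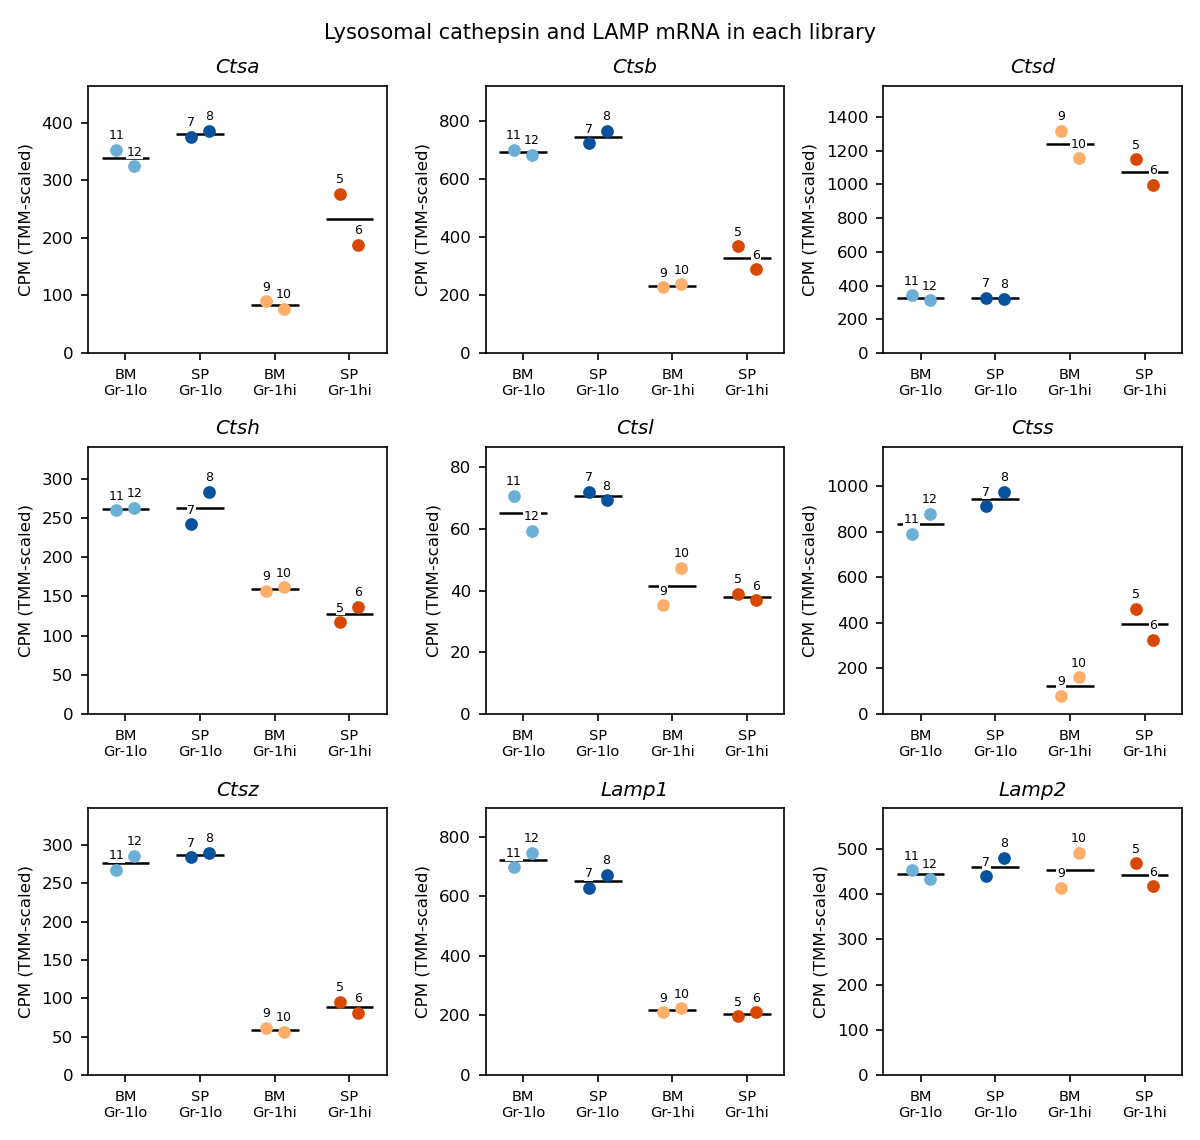
Level of each of the 9 genes in CPM (vertical axis) in the 4 groups (horizontal axis). Each point is 1 library with its number, and the horizontal line is the mean of the group's 2 libraries. *Ctsd* sat at 998 CPM or more in all 4 Gr-1hi libraries and at 344 CPM or less in all 4 Gr-1lo libraries, and *Lamp2* sat between 415 and 492 CPM in all 8.

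*Ctsd* (chr7:142375911-142388038, minus strand) reached 1320.35 and 1157 CPM in the BM Gr-1hi libraries and 344 and 312 CPM in the BM Gr-1lo libraries. In SP it reached 1151 and 998 CPM in Gr-1hi and 329 and 321 CPM in Gr-1lo. The 4 Gr-1hi libraries thus lay far above the 4 Gr-1lo libraries, with no overlap. The log2 FC was 1.92 ± 0.11 (SE, adjusted P = 9.2e-07) in BM and 1.73 ± 0.11 (adjusted P = 3.02e-06) in SP. Its level is uncertain, since it shares 808 exon bases on the same strand with the gene model *Gm49369*, which took 134159 counts over all libraries against 209473 for *Ctsd*. *Gm49369* stood at 0.624 to 0.649 of *Ctsd* in every library, so the ratio of the 2 rows hardly varied.

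*Ctsz* (chr2:174427493-174439039) was read at 61.6 and 56.4 CPM in BM Gr-1hi and at 268 and 286 CPM in BM Gr-1lo. In SP it stood at 95.6 and 81.1 CPM in Gr-1hi and at 284 and 289.9 CPM in Gr-1lo. All Gr-1hi libraries were lower than all Gr-1lo libraries, by a log2 FC of -2.23 ± 0.11 (adjusted P = 3.47e-07) in BM and -1.70 ± 0.10 (adjusted P = 2.32e-06) in SP.

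*Ctsb* (chr14:63122462-63145923) gave 227 and 237 CPM in BM Gr-1hi and 701 and 685 CPM in BM Gr-1lo. Its SP levels were 368 and 289.9 CPM in Gr-1hi and 725 and 768 CPM in Gr-1lo. The subsets were again apart in both tissues, with a log2 FC of -1.58 ± 0.12 (adjusted P = 3.59e-06) in BM and -1.18 ± 0.12 (adjusted P = 2.85e-05) in SP.

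*Ctss* (chr3:95526786-95556403) varied most between groups, 7.77-fold from the lowest to the highest group mean. It stood at 80.8 and 162 CPM in BM Gr-1hi and at 791 and 878 CPM in BM Gr-1lo, a log2 FC of -2.78 ± 0.33 (adjusted P = 0.000149). In SP it stood at 462 and 327 CPM in Gr-1hi and at 913 and 976 CPM in Gr-1lo. The SP log2 FC was -1.26 ± 0.31 (adjusted P = 0.00816). The SP call was lost with no filter on low counts (adjusted P = 0.0595), without library 6 (log2 FC -1.05, adjusted P = 0.0838) and without libraries 5 and 7 (log2 FC -1.60, adjusted P = 0.0959). Relative to their mean, its 2 BM Gr-1hi libraries lay further apart than any other replicate pair of the 9 genes (coefficient of variation 47.4%), and without library 10 the BM log2 FC was -3.29, which passed the rule of FC over 8.

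*Ctsa* (chr2:164832873-164841032) stood at 90.4 and 77.2 CPM in BM Gr-1hi and at 353 and 325 CPM in BM Gr-1lo, a log2 FC of -2.02 ± 0.17 (adjusted P = 9.76e-06). In SP Gr-1hi it stood higher, at 277 and 188 CPM, against 376 and 386 CPM in SP Gr-1lo. The SP subsets did not overlap, but the log2 FC of -0.71 ± 0.17 (adjusted P = 0.00484) was under the 2-fold rule. It passed that rule without library 5 (log2 FC -1.04) and without libraries 5 and 7 (log2 FC -1.06).

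*Ctsh* (chr9:90054152-90076089) and *Ctsl* (chr13:64359337-64370890, minus strand) differed less between subsets. *Ctsh* stood at 157 and 161 CPM in BM Gr-1hi, 259.8 and 263 CPM in BM Gr-1lo, 117 and 137 CPM in SP Gr-1hi and 242 and 284 CPM in SP Gr-1lo. Its log2 FC was -0.72 ± 0.11 (adjusted P = 0.000295) in BM and -1.05 ± 0.11 (adjusted P = 3.56e-05) in SP, where it lay just past the 2-fold rule. With RLE or upper-quartile scaling or DESeq2 the SP value was -0.92, -0.97 and -0.92. It also fell under the 2-fold rule without library 5 (-0.97) and without library 8 (-0.95). *Ctsl*, the least abundant of the 9 per length of exon in every group, was at 35.3 and 47.5 CPM in BM Gr-1hi against 70.8 and 59.5 CPM in BM Gr-1lo. In SP it gave 39.0 and 36.9 CPM in Gr-1hi and 72.2 and 69.3 CPM in Gr-1lo. Its log2 FC was -0.65 ± 0.15 (adjusted P = 0.00318) in BM and -0.90 ± 0.15 (adjusted P = 0.000567) in SP.

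The pair of membrane proteins parted. *Lamp1* (chr8:13159161-13175338) stood at 211 and 225 CPM in BM Gr-1hi against 697 and 747 CPM in BM Gr-1lo. In SP it stood at 197 and 211 CPM in Gr-1hi against 629.8 and 672 CPM in Gr-1lo. Its log2 FC was -1.73 ± 0.09 (adjusted P = 5.42e-07) in BM and -1.67 ± 0.09 (adjusted P = 1.44e-06) in SP. *Lamp2* (chrX:38401357-38456454, minus strand) stood at 415 and 492 CPM in BM Gr-1hi, 452 and 434 CPM in BM Gr-1lo, 468 and 418 CPM in SP Gr-1hi and 439 and 481 CPM in SP Gr-1lo. The *Lamp2* levels overlapped between every pair of groups compared. Its log2 FC between subsets was 0.03 (95% interval -0.22 to 0.28, adjusted P = 0.801) in BM and -0.05 (-0.30 to 0.20, adjusted P = 0.675) in SP, and the sign turned with the scaling, down to -0.41 in BM (adjusted P = 0.0176) on quantile-normalized TPM, a length-scaled level, on which the SP value was -0.42 (adjusted P = 0.0142). Both passed the adjusted P there. The ratio of *Lamp2* to *Lamp1* CPM was 1.96 to 2.38 in the 4 Gr-1hi libraries and 0.581 to 0.715 in the 4 Gr-1lo libraries.

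Without libraries 5 and 7, the SP subset calls of *Ctsd*, *Ctsz*, *Ctsb*, *Ctsh* and *Lamp1* were kept. The log2 FC was then 1.61 for *Ctsd* (adjusted P = 6.34e-05), -1.86 for *Ctsz*, -1.43 for *Ctsb*, -1.07 for *Ctsh*, -0.93 for *Ctsl* and -1.69 for *Lamp1*, with an adjusted P of at most 0.00918 for *Ctsl*, and -0.22 (adjusted P = 0.225) for *Lamp2*.

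**Figure D3:**
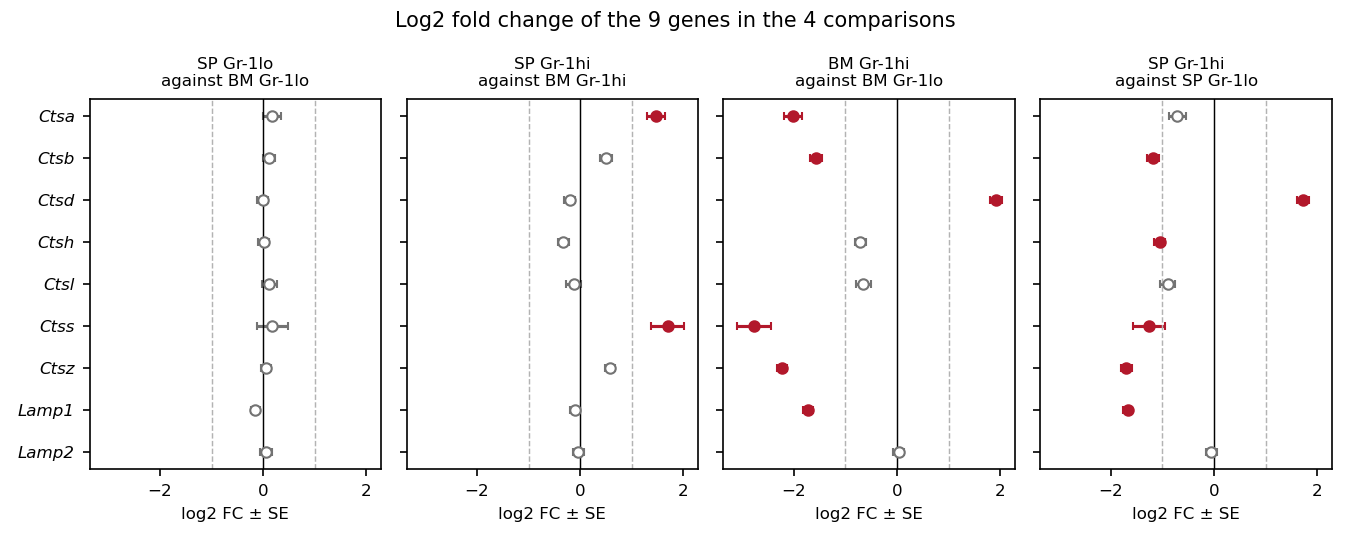
The log2 FC of the 9 genes in the 4 comparisons (panels), with bars for 1 standard error on each side. Positive values are higher in the group named first, and red marks a gene with adjusted P of at most 0.05 and FC of at least 2. Between subsets only *Ctsd* was called on the positive side, with 1.92 in BM and 1.73 in SP. Between tissues only *Ctsa* at 1.47 and *Ctss* at 1.70 were called, both in Gr-1hi cells.

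SP Gr-1hi cells held more *Ctsa* and *Ctss* than BM Gr-1hi cells. These 2 of 9 genes were higher by the 2-fold rule and none was lower, against 15.5% of all genes tested (14% higher, 1.48% lower). *Ctsa* was at 277 and 188 CPM in SP against 90.4 and 77.2 CPM in BM, a log2 FC of 1.47 ± 0.17 (adjusted P = 0.000724). Over all alternatives and with each library left out, the *Ctsa* value stayed between 1.09 and 1.65, with an adjusted P of at most 0.0104. It was 1.18 (adjusted P = 0.000880) without libraries 5 and 7. *Ctss* was at 462 and 327 CPM in SP against 80.8 and 162 CPM in BM, a log2 FC of 1.70 ± 0.32 (adjusted P = 0.00719). The *Ctss* call was lost without library 5 (log2 FC 1.35, adjusted P = 0.0688), without libraries 5 and 7 (1.44, adjusted P = 0.163) and with no filter on low counts (1.73, adjusted P = 0.0605).

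Smaller differences between the Gr-1hi groups passed the adjusted P alone for 3 more genes, which gave 5 of 9 at any fold, 4 higher and 1 lower, against 34% of all genes (20.1% higher, 13.9% lower). *Ctsz* was higher in SP (log2 FC 0.58 ± 0.10, adjusted P = 0.00401) and *Ctsb* was higher (0.50 ± 0.12, adjusted P = 0.0121), while *Ctsh* was lower (-0.33 ± 0.11, adjusted P = 0.0470). The *Ctsb* call was lost without library 5 (0.24, adjusted P = 0.0954), library 9 (0.40, adjusted P = 0.103) or library 10 (0.43, adjusted P = 0.0799), and without libraries 5 and 7 (0.34, adjusted P = 0.0693). The *Ctsh* call was lost in 7 of 8 fits that left out 1 library, with the highest adjusted P of 0.0856 without library 5. It was also lost without libraries 5 and 7 (-0.20, adjusted P = 0.240), with upper-quartile scaling (-0.25, adjusted P = 0.0830), with the 10 CPM filter (-0.22, adjusted P = 0.131), on quantile-normalized TPM (-0.21, adjusted P = 0.892) and in a fit of the 4 libraries alone (-0.31, adjusted P = 0.11). *Ctsz* passed without libraries 5 and 7 (0.47, adjusted P = 0.0283) and missed the threshold without library 10 (0.42, adjusted P = 0.0508). *Ctsd*, *Ctsl*, *Lamp1* and *Lamp2* did not pass. The 95% intervals of their log2 FC ran from -0.45 to 0.04 for *Ctsd*, -0.46 to 0.21 for *Ctsl*, -0.30 to 0.10 for *Lamp1* and -0.28 to 0.22 for *Lamp2*. Levels did not overlap for 7 of 9 genes, 4 higher and 3 lower in SP, against 67.8% of all genes (35.9% higher, 31.9% lower).

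Markers of other cells moved with this comparison. The summed level of 10 splenic macrophage genes was 866 to 1036 CPM in SP Gr-1hi and 539 to 605 CPM in BM Gr-1hi, of which *Slc40a1*, the iron exporter that other myeloid cells also use, made 751 and 480 CPM on average. The macrophage-defining *C1qa* stood at 19.2 and 7.71 CPM and *Cd5l* at 15.4 and 1.78 CPM. Sums of 10 genes were also higher in SP than in BM Gr-1hi for B cells (360 to 537 against 16.3 to 19.9 CPM), T cells (74.8 to 121 against 6.81 to 9.98 CPM) and dendritic cells (31.8 to 38.0 against 7.55 to 7.80 CPM). In the dendritic cell list, *Siglech* (0.37 against 1.13 CPM) and *Clec10a* (0.168 against 0.815 CPM) were lower in SP, and the rest were higher. Sums of 8 genes were higher for plasma cells (288 to 392 against 101 to 102 CPM), patrolling monocytes (425 to 667 against 310 to 314 CPM) and erythroid cells (219 to 733 against 36.0 to 44.3 CPM). In the plasma cell sum, *Xbp1* made 225 and 91.4 CPM on average, and it stood at 261 CPM in SP Gr-1lo and 228 CPM in BM Gr-1lo. In the patrolling monocyte sum, *Nr4a1* made 218 and 84.1 CPM, while *Spn* was lower in SP (108 and 135 CPM). The monocyte sum was lower in SP (1081 to 1203 against 1334 to 1771 CPM). Their part in the *Ctsa* and *Ctss* differences was not tested, and in sorted pools fewer cells of a type and less RNA per cell cannot be told apart.

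The Gr-1lo cells of SP and BM did not show the *Ctsa* and *Ctss* differences. None of the 9 genes was called by edgeR, and none had an unadjusted P below 0.05 or was called by DESeq2, against 4.06% of all genes at FC of at least 2 (3.84% higher, 0.215% lower) and 5.58% at any fold (4.88% higher, 0.697% lower). *Ctsa* stood at 376 and 386 CPM in SP Gr-1lo against 353 and 325 CPM in BM Gr-1lo, a log2 FC of 0.17 ± 0.17 (adjusted P = 0.621). *Ctss* gave 0.18 with a 95% interval of -0.54 to 0.90 (adjusted P = 0.791). The other 7 values lay between -0.15 for *Lamp1* and 0.12 for *Ctsl*. Without libraries 5 and 7 none passed either, and the 9 values lay between -0.12 for *Lamp1* and 0.22 for *Ctss*. Levels did not overlap for 4 of 9 genes, 3 higher and 1 lower in SP, against 59.7% of all genes (27.1% higher, 32.5% lower).

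Whether the subsets differed by tissue was tested as the log2 FC of Gr-1hi over Gr-1lo in SP minus that in BM. *Ctsa* passed at 1.30 ± 0.24 (adjusted P = 0.0114), which made 1 of 9 genes against 9.74% of all genes (7.74% higher, 2% lower). Without library 5 it was 0.90 (adjusted P = 0.0101), under the 2-fold rule, and without libraries 5 and 7 it was 1.004 (adjusted P = 0.0227). At any fold *Ctsz* passed too (0.53 ± 0.14, adjusted P = 0.0399), 2 of 9 genes against 16.4% of all genes (10.3% higher, 6.08% lower), and its call was lost in 7 of 8 fits that left out 1 library, with the highest adjusted P of 0.191 without library 10, and without libraries 5 and 7 (0.42, adjusted P = 0.181). *Ctss* had the highest value, 1.52 ± 0.44, and missed the threshold (adjusted P = 0.0567). It passed with DESeq2 (1.51, adjusted P = 0.00237) and without library 10 (1.99, adjusted P = 0.0119). The other 6 genes lay between -0.33 for *Ctsh* and 0.40 for *Ctsb*.

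Levels per length of exon (FPKM, fragments scaled by exon length and library size) were used to rank the genes within a group. By the length of all exons together the order was the same in both Gr-1lo groups, from *Ctss* (615 FPKM in BM, 696 FPKM in SP) over *Lamp1* (270.1 and 243 FPKM), *Ctsz* (192 and 199 FPKM), *Ctsd* (139.6 and 138 FPKM) and *Ctsb* (115 and 123 FPKM) down to *Ctsl* (10.0 and 10.9 FPKM). By that length no neighbours overlapped in either. In BM Gr-1hi, *Ctsd* led with 527 FPKM, and *Ctss* (89.6 FPKM) and *Lamp1* (81.6 FPKM) followed, not apart beyond their spread. SP Gr-1hi also had *Ctsd* first (457 FPKM), with *Ctss* next at 290.5 FPKM and clear of *Lamp1* at 76.3 FPKM. There *Ctsz*, *Ctsb*, *Ctsa* and *Lamp2*, from 61.3 down to 46.4 FPKM, overlapped each with the next. The order depends on the length used. By the longest transcript, *Ctsd* and *Ctsb* overlapped in both Gr-1lo groups, and so did *Ctsh* and *Ctsa*, and both pairs stood in opposite order in BM and SP. *Lamp2* moved most, since its exons span 9552 bases together and its longest transcript 3604 bases. By the latter it ranked at place 2 in BM Gr-1hi and at place 3 in SP Gr-1hi.

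As a share of the summed FPKM of the 7 cathepsins, *Ctsd* made 73.8% and 65.7% in the BM Gr-1hi libraries, 46.7% and 50.2% in SP Gr-1hi, 12.5% and 10.8% in BM Gr-1lo and 11.0% and 10.2% in SP Gr-1lo. *Ctss* made 7.82% and 16.0%, 32.5% and 28.5%, 49.6% and 52.7%, and 52.8% and 53.7% in the same order. Within these 7, transcripts of the aspartic protease thus made most of the mix in BM Gr-1hi cells. Those of cathepsin S made about as much as the rest of the 7 together in Gr-1lo cells. For both genes SP Gr-1hi lay between the BM Gr-1hi and the Gr-1lo groups. Outside the 7, *Ctsc* stood at 214 FPKM in BM Gr-1lo and 219 FPKM in SP Gr-1lo, and *Ctsg* at 175 and 68.0 FPKM. The *Ctsd* share carries the uncertainty of its level. The 9 genes made 0.189% to 0.274% of all counts in the Gr-1hi libraries and 0.501% to 0.537% in the Gr-1lo libraries.

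**Figure D4:**
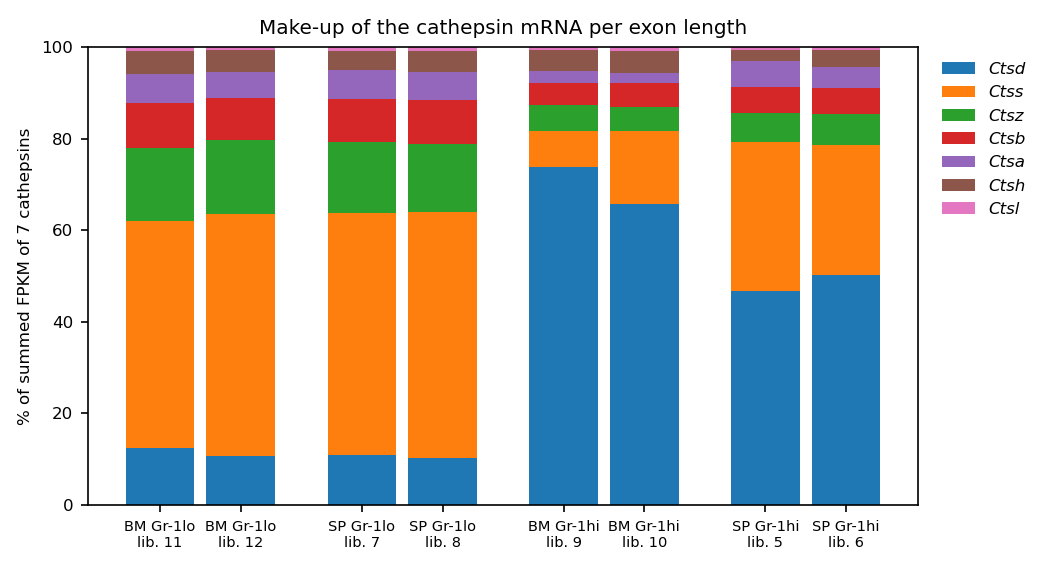
Make-up of the cathepsin transcripts in each library, as percent of the summed FPKM of the 7 cathepsins (vertical axis, stacked from 0 to 100). Each bar is 1 library. *Ctsd* took 65.7% to 73.8% in BM Gr-1hi, 46.7% to 50.2% in SP Gr-1hi and 10.2% to 12.5% in the Gr-1lo libraries.

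Partners of the 9 genes were listed by function, 111 genes in 7 lists, of which 108 were tested. Among 7 tested cathepsins and legumain, *Ctsc*, which activates granule serine proteases, was at 38.7 ± 16.0 CPM (SD, n = 2) in BM Gr-1hi and 1246 ± 182 CPM in BM Gr-1lo (log2 FC -5.01, adjusted P = 1.44e-05). *Ctse*, another aspartic cathepsin, was higher in Gr-1hi like *Ctsd*, with 148 ± 14.4 CPM against 13.3 ± 0.546 CPM (3.48, adjusted P = 1.42e-07). Legumain (*Lgmn*), which processes several cathepsins, was lower in BM Gr-1hi than in BM Gr-1lo (-2.45, adjusted P = 2.57e-06), higher in SP than in BM Gr-1hi (2.03, adjusted P = 0.000208), and its subset difference changed with tissue (1.23, adjusted P = 0.012). Without libraries 5 and 7 that last call was lost (1.12, adjusted P = 0.0535). By the 2-fold rule this list had 1 gene higher and 3 lower of 7 in Gr-1hi in each tissue, near the shares of all genes given above (24.2% higher and 33.1% lower in BM, 22.3% and 27.4% in SP). Between tissues it had 2 higher and 1 lower in SP Gr-1hi (14% and 1.48% of all genes) and 1 higher and 1 lower in SP Gr-1lo (3.84% and 0.215% of all genes). *Ctsg*, a granule serine protease, was the lower one in both (log2 FC -2.06, adjusted P = 0.00937, and -1.36, adjusted P = 0.0259).

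Of 8 cathepsin inhibitors, the stefin A genes *Stfa1*, *Stfa2*, *Stfa3* and *Stfa2l1* were higher in Gr-1hi cells in both tissues, and *Cst7* and *Cd74* were lower. *Stfa2l1* reached 361 ± 59.5 CPM in BM Gr-1hi and 0.994 ± 0.652 CPM in BM Gr-1lo. The stefin A genes are near-identical copies, so reads may be split between them. *Cst3*, the secreted inhibitor cystatin C, was lower in BM Gr-1hi (log2 FC -0.69, adjusted P = 5.08e-05), and so was *Cstb*, the cytosolic cystatin B (-0.75, adjusted P = 0.000114). *Cd74*, whose product cathepsin S cleaves, was like *Ctss* lowest in BM Gr-1hi and highest in SP Gr-1lo, with 92.0 ± 29.5 CPM in BM Gr-1hi, 538 ± 273 CPM in BM Gr-1lo, 589 ± 139 CPM in SP Gr-1hi and 1419 ± 493 CPM in SP Gr-1lo. It was higher in SP Gr-1hi than in BM Gr-1hi (log2 FC 2.68 ± 0.46, adjusted P = 0.00688), where B cell and dendritic cell sums, cells that also make *Cd74*, were higher too; their part in it was not tested. Without libraries 5 and 7 neither that call (2.43, adjusted P = 0.135) nor the SP subset call of *Cd74* (-1.87, adjusted P = 0.151) was kept. Between the Gr-1hi groups *Stfa1* and *Stfa3* were lower in SP, and no inhibitor was called at any fold between the Gr-1lo groups, where *Cst7* was called lower without libraries 5 and 7.

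The 42 soluble hydrolases and cofactors had 2 genes higher and 14 lower in BM Gr-1hi than in BM Gr-1lo, and 1 higher and 14 lower in the SP comparison. The share of lower genes was thus near that of all genes (33.1% in BM, 27.4% in SP), and fewer were higher (24.2% and 22.3% of all genes). Their median log2 FC was -0.67 in BM and -0.54 in SP, against -0.17 and -0.09 over all genes. *Lyz2*, the lysozyme with the highest level of the list, stood at 11003 ± 654 CPM in BM Gr-1hi, 8431 ± 314 CPM in BM Gr-1lo, 6432 ± 2747 CPM in SP Gr-1hi and 8503 ± 632 CPM in SP Gr-1lo, and may share reads with its near-identical copy *Lyz1*. It did not pass between subsets and was lower in SP than in BM Gr-1hi at any fold (-0.77, adjusted P = 0.0429), which was lost without libraries 5 and 7 (-0.38, adjusted P = 0.0769). *Man2b1*, an alpha-mannosidase, was higher in BM Gr-1hi with 751 ± 61.1 against 389.7 ± 0.930 CPM (0.95, adjusted P = 1.31e-05). *Psap*, the precursor of the saposins, fell from 4273 ± 184 to 1485 ± 36.4 CPM in BM (-1.53, adjusted P = 1.38e-06), and *Npc2*, which hands on cholesterol, fell likewise (-2.14, adjusted P = 3.29e-07). The clients of the *Ctsa* protein moved apart: *Neu1*, the neuraminidase, was higher in BM Gr-1hi (1.08, adjusted P = 4.57e-05), and *Glb1*, the beta-galactosidase, was lower (-2.05, adjusted P = 1.5e-06). Between SP and BM Gr-1hi, 7 of the 42 were higher and none lower by the 2-fold rule, near the shares of all genes (14% higher, 1.48% lower): *Acp5* (2.80), *Scpep1* (2.09), *Pla2g15* (1.63), *Ifi30* (1.62), *Gm2a* (1.49), *Dnase2a* (1.49) and *Gaa* (1.31), named after their values were seen. Without libraries 5 and 7 there were 5, with *Scpep1* (2.01, adjusted P = 0.185) and *Ifi30* (1.37, adjusted P = 0.0550) no longer called. *Ifi30* encodes a lysosomal thiol reductase of antigen processing. *Neu1* went the other way (-0.50, adjusted P = 0.0143; without libraries 5 and 7 -0.32, adjusted P = 0.0844). Between the Gr-1lo groups *Acp5* alone was called, higher in SP. Between the Gr-1hi groups the median of the list was -0.00 against 0.03 over all genes.

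Among 15 tested membrane proteins of the lysosome, *Cd63*, *Cln3* and *Cd164* were higher in Gr-1hi cells in both tissues, with 5 lower in BM and 3 lower in SP. These shares were near or below those of all genes (24.2% higher and 33.1% lower in BM, 22.3% and 27.4% in SP). Between tissues *Laptm4b* was higher and *Cd63* lower in SP Gr-1hi by the 2-fold rule, and neither was without libraries 5 and 7 (0.92, adjusted P = 0.0979, and -0.79, adjusted P = 0.00646). None was called in Gr-1lo. *Cln3* stood at 323 ± 28.8 CPM in BM Gr-1hi and 56.1 ± 2.71 CPM in BM Gr-1lo (2.53, adjusted P = 2.01e-07). *Laptm5*, of the same list, was read at 1631 to 1932 CPM in the 4 group means. Of the transcription factors, *Tfeb* was at 100.2 ± 4.80 CPM in BM Gr-1hi, 100.5 ± 4.05 CPM in SP Gr-1hi, 45.0 ± 2.40 CPM in BM Gr-1lo and 46.7 ± 2.05 CPM in SP Gr-1lo. It was thus higher in Gr-1hi cells (1.16, adjusted P = 4.38e-06 in BM and 1.11, adjusted P = 8.77e-06 in SP). Of the E-box genes, *Ctsd* was higher and *Ctsa*, *Ctsl* and *Lamp1* were lower in these cells, and a link to *Tfeb* was not tested. *Tfe3* was higher there too (1.21, adjusted P = 2.9e-06 in BM and 0.66, adjusted P = 0.00016 in SP) and *Mitf* lower in BM (-0.88, adjusted P = 0.000695). *Foxo3*, the most abundant of the factors by mean CPM, stood at 249.5 ± 20.4 CPM in BM Gr-1hi against 59.5 ± 2.86 CPM in BM Gr-1lo (2.07, adjusted P = 2.67e-07) and at 231 ± 0.629 CPM against 70.5 ± 1.85 CPM in SP (1.71, adjusted P = 1.29e-06). Over the 6 factors, 3 were higher and 1 lower in BM, 2 higher and 1 lower in SP, and none was called at FC of at least 2 between tissues, where *Tfec* was higher and *Tfe3* lower in SP Gr-1hi at any fold, neither of them without libraries 5 and 7 (adjusted P = 0.263 and 0.0639).

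**Figure D5:**
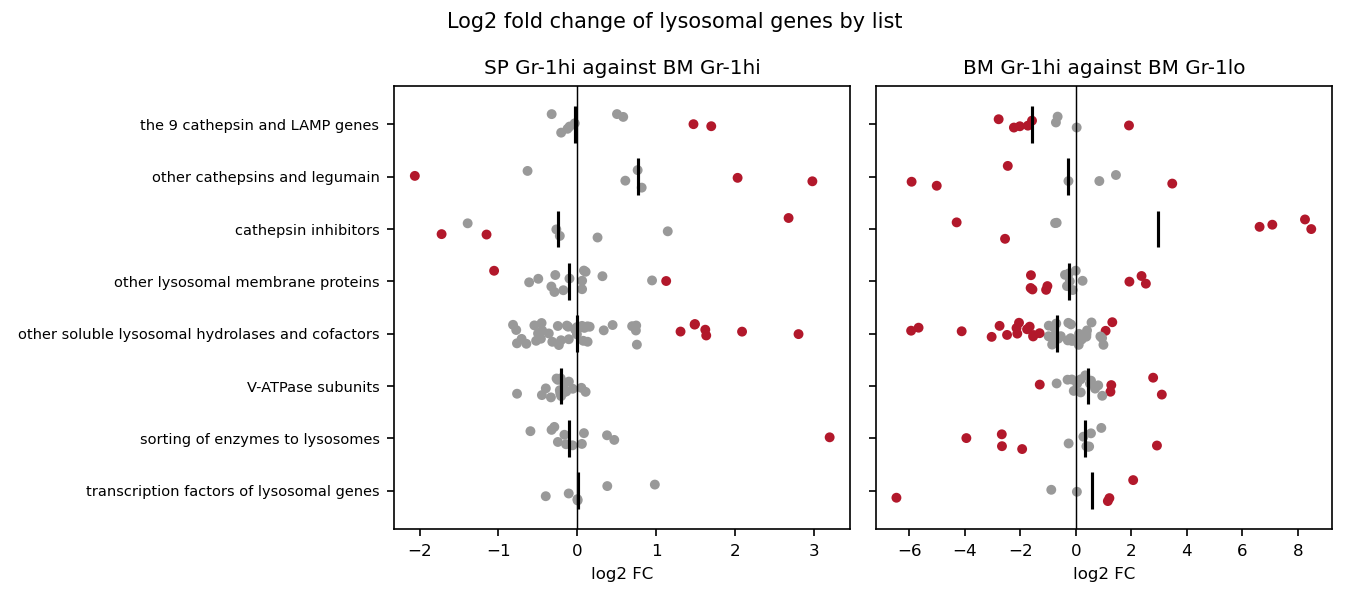
The log2 FC of the tested genes of each list of other lysosomal genes (rows, with the 9 genes in the first) between SP and BM Gr-1hi (left panel) and between BM Gr-1hi and Gr-1lo (right panel). Each point is 1 gene, red marks adjusted P of at most 0.05 with FC of at least 2, and the vertical tick is the list's median. The soluble hydrolases had a median of -0.67 between the BM subsets and of -0.00 between the Gr-1hi groups, where 7 of them stood at 1.31 or above.

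For each of the 9 genes the most alike genes were taken by Pearson's r of log2 CPM over the 8 libraries, from 8588 other genes with a mean of at least 10 CPM. The libraries fall into 4 groups that differ in many genes, so high r is common and is given as a description. *Ctss* was nearest to the interferon-inducible *Ifi203* (r = 0.9942) and *Ifi214* (r = 0.9941). *Ctsa* was nearest to *Foxp4* (0.9974) and *Usp6nl* (0.9946), *Ctsb* to *Cd302* (0.9989) and *Rnft1* (0.9979), and *Ctsz* to *Bax* (0.9993) and *Gm12922* (0.9989). *Lamp1* was nearest to *Parl* (0.9996) and *Ndufa10* (0.9995), *Ctsh* to *Igbp1* (0.9978) and *Gmpr2* (0.9945), and *Ctsl* to *Vcan* (0.9848) and *Eif3k* (0.9766). *Ctsd* was nearest to its overlapping partner *Gm49369* (0.9998) and then to *Casc3* (0.9994). For *Lamp2*, which hardly varied, no gene passed the r of 0.717 of *Gm5905*, and *B230206H07Rik* came next (0.710).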

How the data were processed

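Stranded poly(A) mRNA libraries were sequenced as paired reads from 8 sorted samples. According to the submitters' processing notes and the study's methods, the authors trimmed reads, aligned them with STAR to GRCm38 (mm10), and counted them per gene with featureCounts; the deposited table holds raw counts with no normalization. Groups were taken from the sample titles. Counts were scaled by TMM and tested with edgeR 4.0.16 (R 4.3.3; quasi-likelihood, robust) after filterByExpr, in a fit of all 8 libraries with 4 residual degrees of freedom and Benjamini-Hochberg adjustment over 17650 genes. CPM are TMM-scaled, and FPKM use exon lengths from a GENCODE release on GRCm38 that is earlier than the one the study used. Coordinates are on GRCm38. The fit was tested on simulated data. Depth of 33453580 to 68316154 counts makes counting error small beside the spread between libraries.

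The 9 genes and all lists were chosen with earlier results of these data known. Named were all 9 genes, the 3 genes with the highest mean CPM of each list, fixed partners and controllers, and the 2 most alike genes for each of the 9; others are marked. Alternatives were RLE and upper-quartile scaling, DESeq2 1.42.0, no filter, a 10 CPM filter, edgeR's exact test on quantile-normalized TPM (nearest to the study's own procedure), fits of the 4 libraries compared, each library left out, and libraries 5 and 7 left out. Leaving out a library leaves its group with a lone library, so the spread then comes from the other groups. Summing *Ctsd* with *Gm49369* was added after seeing the data. Promoter sequences came from RefSeq, with none listed for *Ctsb* and *Ctsh*; protein sequences were not used here.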

Additional observations from a re-analysis of the deposited data

Results flagged for a closer look

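At any fold, the subset difference (Gr-1hi over Gr-1lo) changed with tissue for 2 of the 9 genes, by edgeR's test of the difference itself. Of all genes tested, 16.4% passed (10.3% higher, 6.08% lower). For *Ctsa* the log2 FC was -2.02 in BM and -0.71 in SP, a difference of 1.30 (SE 0.24, adjusted P = 0.0114). With 1 library left out, that difference ran from 0.90 to 1.46. For *Ctsz* the log2 FC was -2.23 in BM and -1.70 in SP, a difference of 0.53 (SE 0.14, adjusted P = 0.0399). It missed the threshold with RLE scaling (adjusted P = 0.0536). The *Ctsz* difference was 0.42 without libraries 5 and 7 and ran from 0.31 to 0.58 with 1 library left out. Groups of 2 libraries are too small to test for a library that stands apart.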

How the results depend on the processing

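No paired analysis was possible because the labels give each library its own number and do not say which libraries share a mouse. The study calls its BM cells autologous, so a pairing by mouse that could not be used may exist for some libraries. Library 5 held 12032 counts of *Xist* and 0 of *Ddx3y*. The BM libraries held at most 5 counts of *Xist* and at least 1725 of *Ddx3y*, so no BM library matched library 5 in these transcripts. Of the log2 FC of single genes under the alternatives, 688 kept their direction and side of the 2-fold rule, 38 changed sign, 12 lost their call by that rule and 9 gained one, and the main values that changed sign lay near 0. At any fold, 33 lost their call and 8 gained one with the sign kept. Those lost were 12 for *Ctsh*, 4 for *Ctsb*, 3 for *Ctss* and 1 for *Ctsz* between the Gr-1hi groups, 3 for *Ctss* between the SP subsets, 1 for *Ctsl* between the BM subsets and 9 for *Ctsz* in the difference by tissue. RLE scaling and DESeq2 gave -0.049 for *Ctsh*, -0.0052 for *Ctsz* and -0.0043 for *Lamp2* between the Gr-1lo groups and 0.081 for *Lamp2* between the SP subsets. Upper-quartile scaling gave 0.022 for *Ctsd* between the Gr-1lo groups and 0.047 and 0.029 for *Lamp2* between the Gr-1hi groups and the SP subsets. No filter gave 0.031 for *Ctsd* (Gr-1lo groups) and -0.075 (BM subsets) for *Lamp2*. The 10 CPM filter gave 0.012 for *Ctsd* (Gr-1lo groups), 0.0086 for *Lamp1* and 0.077 for *Lamp2* (Gr-1hi groups), and -0.12 for *Lamp2* (BM subsets). Quantile-normalized TPM gave -0.023 for *Ctsh* (Gr-1lo groups), 0.016 for *Lamp2* (Gr-1hi groups) and -0.41 for *Lamp2* (BM subsets, adjusted P = 0.0176). The fit of the 4 libraries gave 0.011 for *Ctsd* (Gr-1lo groups), and leaving out libraries 5 and 7 gave -0.017 for *Lamp2* in BM. With 1 library left out, ranges that crossed 0 were, between the Gr-1lo groups, -0.081 to 0.061 for *Ctsd*, -0.11 to 0.12 for *Ctsh* and -0.011 to 0.12 for *Lamp2*. The others were -0.40 to 0.0052 for *Ctsl* between the Gr-1hi groups, -0.022 to 0.20 in BM and -0.16 to 0.0025 in SP for *Lamp2*, and -0.093 to 0.10 for *Lamp1* in the difference by tissue.

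Of the 9 genes, the number called between the Gr-1hi groups was 1, not 2, with no filter and without libraries 5 and 7, and 1 to 2 with 1 library left out. For the difference of subsets by tissue it was 2, not 1, with upper-quartile scaling, DESeq2 or the 10 CPM filter, and 0 to 2 with 1 library left out. By FC over 8 it was 1, not 0, in BM with quantile-normalized TPM, and 0 to 1 with 1 library left out. Among the other lysosomal genes, the number called between the Gr-1lo groups was 1, not 4, with the 10 CPM filter and with quantile-normalized TPM, and 1 to 4 with 1 library left out. Between the Gr-1hi groups it was 9, not 16, with quantile-normalized TPM, and 11 to 22 with 1 library left out. For the difference by tissue it was 5, not 13, without libraries 5 and 7, and 5 to 15 with 1 library left out. The main fit tested 108 other lysosomal genes. It called 4 between the Gr-1lo groups, 16 between the Gr-1hi groups and 13 in the difference by tissue. By the same 2-fold rule, 4.06%, 15.5% and 9.74% of all genes were called, so the lysosomal counts were near the background. Apart from counts that follow from fewer libraries or genes, the cause of the changed counts was not tested. The median log2 FC of all genes between the BM subsets was -0.17 with TMM and -0.03 with RLE scaling, and between the SP subsets -0.09 and 0.04. Summing *Ctsd* with *Gm49369*, chosen after seeing the data, changed no call.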

Other observations

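None of the 18 V-ATPase subunits, the pump that acidifies the lysosome, was called by edgeR at FC of at least 2 between SP and BM in either subset, against 15.5% of all genes in Gr-1hi and 4.06% in Gr-1lo. At any fold 3 were lower in SP Gr-1hi (13.9% of all genes) and none was called in SP Gr-1lo, and without libraries 5 and 7 none was called in either. Between subsets, 4 subunits were higher and 1 lower in BM Gr-1hi (24.2% and 33.1% of all genes), and 2 were higher and 1 lower in SP Gr-1hi (22.3% and 27.4% of all genes). *Atp6v0a1* was among the higher ones in both tissues, *Tcirg1*, which encodes another isoform of the same a subunit, was the lower one, and both were named after their values were seen. *Atp6v0c*, of the membrane ring, stood at 339 to 390.5 CPM in the 4 group means and *Atp6v1b2* at 297 to 336 CPM. *Atp6ap1*, an accessory subunit, was at 325 ± 13.4 CPM in BM Gr-1hi and 186 ± 8.42 CPM in BM Gr-1lo (0.81, adjusted P = 2.11e-05).

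The list of 12 genes for the sorting of enzymes to lysosomes also held *Hgsnat*, which encodes a lysosomal enzyme and no sorting protein. *M6pr*, the cation-dependent mannose 6-phosphate receptor, was at 67.3 ± 2.33 CPM in BM Gr-1hi and 257 ± 10.2 CPM in BM Gr-1lo (log2 FC -1.93, adjusted P = 3.65e-07). The other such receptor, *Igf2r*, was the 1 gene of the list called higher in Gr-1hi cells in both tissues by the 2-fold rule. Of all genes, 24.2% were higher in BM Gr-1hi and 22.3% in SP Gr-1hi. *Sort1*, the receptor sortilin, stood at 481 ± 27.6 CPM in BM Gr-1hi and 254 ± 2.69 CPM in BM Gr-1lo (0.92, adjusted P = 0.000228), and *Gga1*, an adaptor, at 148 ± 13.3 and 113 ± 1.91 CPM (0.38, adjusted P = 0.00365). Between tissues 1 gene was called in each subset, *Gga2* in Gr-1hi and *Igf2r* in Gr-1lo, both higher in SP and named after their values were seen. By the 2-fold rule 14% of all genes were higher in SP in Gr-1hi cells and 3.84% in Gr-1lo cells. Without libraries 5 and 7, *Gga2* was still called (2.90, adjusted P = 0.00011) and *Igf2r* fell under the 2-fold rule (0.95, adjusted P = 0.00196).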
